A study of Homo sapiens with 6 samples.

Results

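Desmosome transcripts were measured by RNA-seq in OV3/SCR and OV3/COX1KD cells, a pair of stable lines made from OVCAR-3, an established human ovarian carcinoma line. The desmosome genes described here are 10 genes chosen by symbol from the 34811 genes of the count table: the desmogleins DSG2 and DSG3, the desmocollins DSC2 and DSC3, the plaque proteins JUP (plakoglobin) and DSP (desmoplakin), and the plakophilins PKP1, PKP2, PKP3 and PKP4. OV3/SCR cells carried a scrambled shRNA in a pRS plasmid, and in OV3/COX1KD cells the shRNA of that plasmid was directed against COX-1. Both lines were kept under puromycin during selection and grown in serum-containing RPMI-1640, and each condition contributed 3 libraries from independent passages. Each condition was represented by 1 clone, so differences between clones and differences due to the knockdown cannot be told apart, and p-values measured only the spread between passages.

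Desmosomes are spot-like junctions that fasten neighboring epithelial cells and anchor their keratin filaments. Desmogleins and desmocollins, the desmosomal cadherins, cross the membrane and bind their counterparts on the next cell. Inside the cell their tails are held by plakoglobin and the plakophilins, and desmoplakin links this plaque to keratin. Desmosomal cadherins and plakophilins come as families whose members are used in different epithelial layers, and DSG2, DSC2 and PKP2 are typical of simple epithelia.

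Promoter sequences were available for 8 of the 10 genes in RefSeq (GRCh38.p14), each covering 250 bases before and 50 bases after the annotated start. PKP2 and PKP3 had no entry in the table used. The promoters of DSP, DSG2 and DSC2 are shown because they hold CAGGTG, an E-box letter pattern known to be bound by repressors of epithelial genes, and that of JUP because it did not. Capitals mark CAGGTG on the strand shown or its reverse complement CACCTG, and all sequences read 5′ to 3′ on the strand of the gene. The DSP window was chr6:7541421-7541720 (plus strand), the DSG2 window chr18:31497927-31498226 (plus), the DSC2 window chr18:31102372-31102671 (minus) and the JUP window chr17:41786662-41786961 (minus). The windows of DSC2 and JUP are the first of 2 entries for each gene.
DSP: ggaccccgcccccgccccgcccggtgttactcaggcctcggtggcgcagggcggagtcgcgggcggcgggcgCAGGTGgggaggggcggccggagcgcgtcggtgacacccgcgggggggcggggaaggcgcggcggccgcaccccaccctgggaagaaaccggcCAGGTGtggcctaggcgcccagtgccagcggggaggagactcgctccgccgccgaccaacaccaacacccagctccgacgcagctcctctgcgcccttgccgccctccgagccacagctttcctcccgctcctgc
DSG2: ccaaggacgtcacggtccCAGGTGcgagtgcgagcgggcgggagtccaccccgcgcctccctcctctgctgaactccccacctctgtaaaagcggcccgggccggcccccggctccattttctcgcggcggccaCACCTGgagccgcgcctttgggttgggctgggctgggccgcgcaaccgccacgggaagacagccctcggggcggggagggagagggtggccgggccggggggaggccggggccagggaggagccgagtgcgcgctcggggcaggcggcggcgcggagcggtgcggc
DSC2: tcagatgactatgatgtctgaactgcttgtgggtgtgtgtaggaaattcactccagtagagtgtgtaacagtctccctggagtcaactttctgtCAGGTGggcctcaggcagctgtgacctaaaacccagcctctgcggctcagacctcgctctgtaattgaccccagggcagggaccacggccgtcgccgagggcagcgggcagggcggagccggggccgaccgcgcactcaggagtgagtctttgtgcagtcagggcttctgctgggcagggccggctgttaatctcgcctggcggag
JUP: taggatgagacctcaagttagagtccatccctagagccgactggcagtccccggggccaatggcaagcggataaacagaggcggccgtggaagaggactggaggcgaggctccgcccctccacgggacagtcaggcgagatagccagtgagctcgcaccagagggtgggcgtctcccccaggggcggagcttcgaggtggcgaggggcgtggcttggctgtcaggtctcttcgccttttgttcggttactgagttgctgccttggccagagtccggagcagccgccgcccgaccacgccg

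The pattern stood 178 and 85 bases before the start of DSP, 232 and 116 bases before the start of DSG2, and 156 bases before the start of DSC2. It was present on either strand in 3 of the 8 desmosome promoters and in 20.6% of 35116 promoters of the same length. AACNNGTT, the core recognized by grainyhead-like factors, was in none of the 8 windows and in 3.52% of all promoters. GC content was 77% in the DSP window, 76.7% in DSG2, 60.7% in DSC2 and 65.3% in JUP, against a median of 58.7% over all promoters. A letter match is a description of the window and not evidence of a bound site.

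Between 25291505 and 27391538 reads were counted on genes per library, so the detection floor of 3 counts corresponded to 0.110 to 0.119 CPM (counts scaled to a common library total). The targeted gene PTGS1, which encodes COX-1, had 713, 658 and 641 counts in OV3/SCR and 456, 486 and 501 in OV3/COX1KD, with no overlap between the conditions (log2 fold change -0.45, SE 0.057, edgeR FDR = 1.34e-06). All 7 ovarian carcinoma markers examined exceeded the floor in every library, and their summed level was higher in OV3/COX1KD (5700 to 5870 CPM) than in OV3/SCR (4490 to 4520 CPM). MUC16, a mucin of ovarian carcinoma cells, was among the 5 that rose (log2 fold change 1.36) and PAX8, a lineage transcription factor, among the 2 that fell (-0.76). Of 6 fibroblast markers 3 exceeded the floor in every library, with a summed level of 11.2 to 11.8 CPM in OV3/SCR and 6.64 to 7.26 CPM in OV3/COX1KD, and the type I collagen gene COL1A1 fell (log2 fold change -0.77). Of 4 leukocyte markers none did (0.788 to 1.15 CPM and 0.338 to 0.718 CPM), and of 3 endothelial markers with a row 2 did (2.46 to 3.23 CPM and 2.87 to 3.57 CPM). No marker was at 0 in all libraries, and the part of these marker levels in the desmosome results was not tested. Both lines were OVCAR-3 clones, so reads on a fibroblast, leukocyte or endothelial marker do not show that such cells were present. In bulk RNA fewer expressing cells and less RNA per cell cannot be told apart.

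Among the genes counted, 8 of the 10 desmosome genes were expressed well above the floor. Levels were compared between genes as TMM-normalized CPM (CPM after trimmed-mean scaling of the libraries) per kilobase of the canonical transcript. In OV3/SCR the order was PKP3 (58.0 CPM per kb), DSP (50.2), DSG2 (41.6), JUP (25.5), PKP4 (22.6), DSC2 (19.9), PKP2 (11.1) and DSC3 (2.78), and no 2 neighbors in that order overlapped between libraries. In OV3/COX1KD the order was DSP (66.9), DSG2 (58.1), PKP3 (56.7), JUP (32.4), DSC2 (30.1), PKP4 (26.8), PKP2 (20.6) and DSC3 (3.68). Here DSP (59.4 to 71.4) overlapped with DSG2 (54.4 to 60.1), and DSG2 overlapped with PKP3 (55.5 to 57.4), so neighbors among the top 3 were not separated. The means of PKP1 and DSG3 lay at or below 0.0351 CPM per kb in both conditions. Their highest single library was at 0.0641 (DSG3 in OV3/COX1KD), and the libraries of PKP1 and DSG3 overlapped with each other. The length used affects this order, as seen when the union of annotated exons replaced the canonical transcript. DSC2 then stood above JUP in both conditions and above PKP4 in OV3/SCR as well. In OV3/COX1KD PKP3 (42.1) then stood above DSG2 (34.9).

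**Figure D1:**
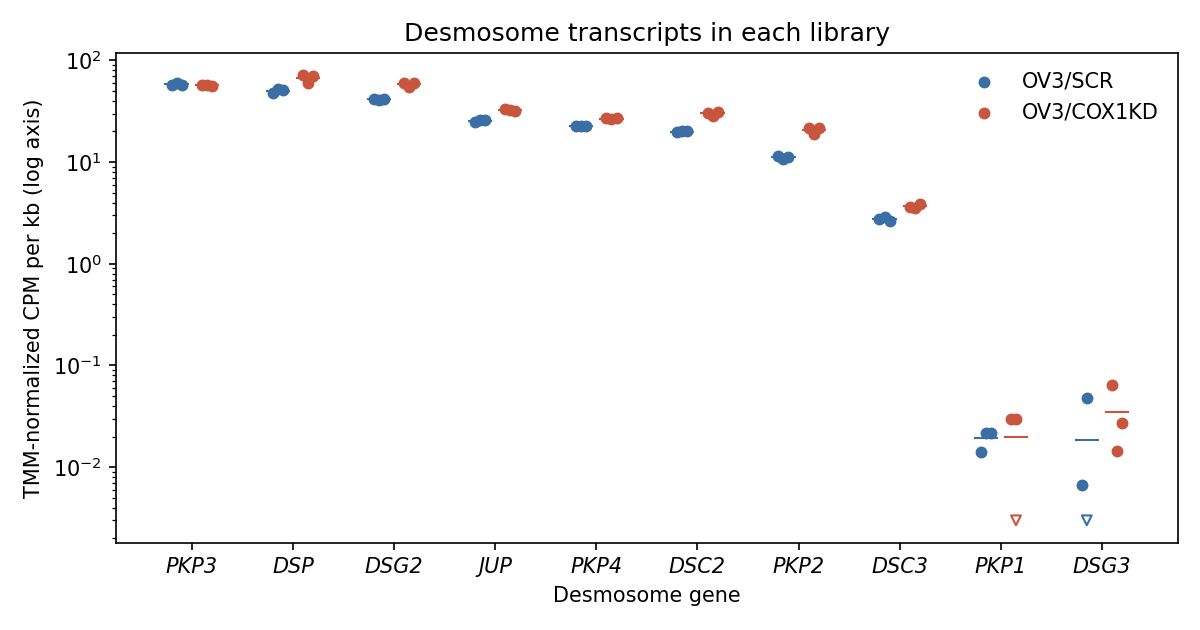
TMM-normalized CPM per kb of canonical transcript (log axis) of the 10 desmosome genes, ordered by their OV3/SCR level. Points are libraries (3 per condition), short lines are means and open triangles are libraries with 0 counts, drawn at the foot of the axis. Among the 8 genes well above the floor, PKP2 shows the widest gap between conditions and PKP3 shows none. PKP1 and DSG3 lie far below these 8.

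The desmosomal cadherins expressed in these cells all rose in OV3/COX1KD. DSG2 (ENSG00000046604, chr18:29078140-29128971 of GRCh37), the desmoglein found in all desmosome-forming tissues, had 6276, 6119 and 6208 counts in OV3/SCR replicates 1, 2 and 3 and 8616, 7765 and 9097 in OV3/COX1KD. Every OV3/COX1KD library lay above every OV3/SCR library, and OV3/COX1KD replicate 2 was the lowest of its condition. The level went from 237 ± 2.91 CPM (SD, n = 3) to 331 ± 18.5 CPM (SD, n = 3), a 1.40-fold change (log2 fold change 0.48, SE 0.036, 95% interval 0.41 to 0.55, edgeR FDR = 5.45e-10).

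DSC2 (ENSG00000134755, chr18:28638806-28682485), the desmocollin that accompanies DSG2 in simple epithelia, had 6451, 6417 and 6434 counts in OV3/SCR and 9460, 8797 and 10254 in OV3/COX1KD. The OV3/SCR libraries were nearly identical and all OV3/COX1KD libraries stood above them. DSC2 rose 1.51-fold, from 246 ± 3.48 CPM to 371 ± 17.5 CPM (SD, n = 3 each; log2 fold change 0.59, SE 0.034, 95% interval 0.53 to 0.66, edgeR FDR = 1.11e-11), the largest change among the cadherin members. DSC3 (ENSG00000134762, chr18:28569331-28622781), a desmocollin more typical of stratified epithelia, was present at a lower level, with 563, 570 and 522 counts in OV3/SCR and 697, 664 and 788 in OV3/COX1KD. The conditions did not overlap for DSC3 either. Its level went from 21.1 ± 0.842 CPM to 27.9 ± 1.55 CPM (SD, n = 3 each), a 1.33-fold rise (log2 fold change 0.41, SE 0.058, edgeR FDR = 5.19e-06).

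DSG3 (ENSG00000134757, chr18:29027704-29058665), the desmoglein of the deep layers of stratified epithelia, had 1, 7 and 0 counts in OV3/SCR and 9, 2 and 4 in OV3/COX1KD. These counts overlapped and were too few for the low-count filter. Without the filter its edgeR FDR was 0.393, and a difference in DSG3 was not detectable at this depth. Of the 3 desmosomal cadherin genes outside the chosen 10, DSG1 had 0, 2 and 0 counts in OV3/SCR and 1, 0 and 2 in OV3/COX1KD, and DSG4 had 1 count in a single OV3/COX1KD library. DSC1, a desmocollin of the upper epidermis, had 66, 60 and 55 counts in OV3/SCR and 78, 72 and 101 in OV3/COX1KD. DSC1 passed the threshold narrowly (log2 fold change 0.50, SE 0.156, edgeR FDR = 0.00948), and its FDR was 0.0127 with the replicate block and past 0.01 in 12 of 14 alternative analyses.

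The plaque proteins that join the cadherins to keratin, DSP and JUP, rose as well. DSP (ENSG00000096696, chr6:7541571-7586947), which carries the keratin link, had the most reads of the 10 genes, with 12463, 13066 and 12709 counts in OV3/SCR and 17419, 14444 and 18047 in OV3/COX1KD. OV3/COX1KD replicate 2 stood apart from the other 2 libraries of its condition but still lay above every OV3/SCR library. DSP rose 1.33-fold, from 487 ± 17.4 CPM to 649 ± 63.0 CPM (SD, n = 3 each; log2 fold change 0.41, SE 0.049, 95% interval 0.32 to 0.51, edgeR FDR = 4.45e-07). The relative spread in OV3/COX1KD was wider for DSP than for the cadherins.

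JUP (ENSG00000173801, chr17:39910856-39943183) encodes plakoglobin, which binds desmosomal and classical cadherins alike. It had 2314, 2353 and 2357 counts in OV3/SCR and 2929, 2835 and 2956 in OV3/COX1KD. The libraries within each condition were close together and the conditions did not overlap. The level went from 89.4 ± 2.31 CPM to 114 ± 2.73 CPM (SD, n = 3 each), a 1.27-fold rise (log2 fold change 0.34, SE 0.035, 95% interval 0.28 to 0.41, edgeR FDR = 6.17e-08).

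The plakophilins, armadillo-repeat proteins that cluster the cadherins and recruit desmoplakin, differed most among themselves. PKP2 (ENSG00000057294, chr12:32943679-33049732), the plakophilin of simple epithelia and heart muscle, had 1286, 1175 and 1235 counts in OV3/SCR and 2279, 2019 and 2410 in OV3/COX1KD. The lowest OV3/COX1KD library was well above the highest OV3/SCR library. PKP2 rose 1.85-fold, from 47.0 ± 1.70 CPM to 87.2 ± 5.74 CPM (SD, n = 3 each; log2 fold change 0.89, SE 0.047, 95% interval 0.80 to 0.98, edgeR FDR = 3.68e-12). Its interval lay above that of each of the other 7 tested desmosome genes.

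PKP4 (ENSG00000144283, chr2:159313464-159539391), a p120-catenin relative also found at adherens junctions, had 2797, 2715 and 2673 counts in OV3/SCR and 3130, 3043 and 3308 in OV3/COX1KD. The conditions did not overlap, and the libraries within each were tightly grouped. PKP4 had the smallest of the called changes, 1.18-fold, from 104 ± 0.763 CPM to 123 ± 1.64 CPM (SD, n = 3 each; log2 fold change 0.24, SE 0.032, 95% interval 0.18 to 0.31, edgeR FDR = 1.96e-06).

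PKP3 (ENSG00000184363, chr11:392614-404908), a plakophilin broadly expressed in epithelia, was the abundant member that did not pass the test. It had 4309, 4385 and 4150 counts in OV3/SCR and 4069, 4031 and 4162 in OV3/COX1KD, and the conditions overlapped. Its level was 164 ± 4.18 CPM and 160 ± 2.95 CPM (SD, n = 3 each; log2 fold change -0.03, SE 0.032, 95% interval -0.10 to 0.03, edgeR FDR = 0.361). Scaling by total counts alone in place of TMM gave a log2 fold change of -0.11 with an edgeR FDR of 0.00462, so the call on PKP3 depends on the scaling. PKP1 (ENSG00000081277, chr1:201252580-201302121), the plakophilin of stratified epithelia, had 2, 3 and 3 counts in OV3/SCR and 4, 4 and 0 in OV3/COX1KD. PKP1 was left out by the filter on low counts, and a test that kept it gave an edgeR FDR of 0.986.

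Of the 10 desmosome genes, 8 passed the filter on low counts, 7 of these were called higher and 0 lower at an edgeR FDR under 0.01. Over all 17309 tested genes 25.8% were called higher (4473 genes) and 22.1% lower (3820 genes), so a call by itself was common in this comparison. Scaling by total counts alone gave 3466 genes higher and 4978 lower. With a log2 fold change beyond 0.5 as a further requirement, 2 of the 8 were called higher (DSC2 and PKP2) and 0 lower, beside 9.87% of tested genes higher and 10.0% lower. A change above 2.5-fold at the same FDR was reached by 0 of the 8, and by 1.58% of tested genes higher and 2.34% lower. The median log2 fold change of the 8 was 0.41, and that of all tested genes was -0.0087. All 8 were among the 8584 tested genes of highest mean log2 CPM, whose median log2 fold change was 0.044. The shares of genes called given above cover tested genes of every level, and those among these 8584 genes are not given here. Percentiles were taken by signed log2 fold change, from the most lowered to the most raised gene, and are not ranks of size. PKP2 stood at percentile 95.9 of all tested genes, DSC2 at 90.5, DSG2 at 87.2 and DSP at 84.2. DSC3 stood at 83.8, JUP at 80.5, PKP4 at 73.9 and PKP3 at 47.3.

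**Figure D2:**
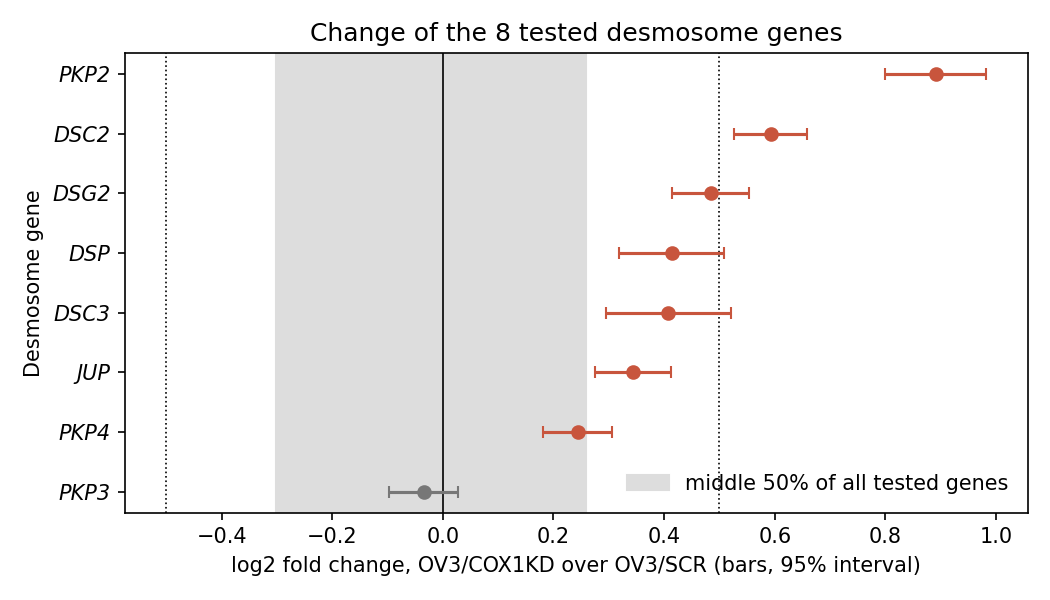
log2 fold change of OV3/COX1KD over OV3/SCR for the 8 tested desmosome genes, with 95% intervals from the edgeR fit. Red marks an FDR under 0.01, the grey band holds the interquartile range of all tested genes and dotted lines mark -0.5 and 0.5. The intervals of PKP2 and DSC2 lie wholly above 0.5, that of PKP3 crosses 0, and the estimate of PKP4 lies inside the grey band.

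The makeup of the plakophilin transcripts differed between the conditions more than that of the cadherin transcripts. Of the summed plakophilin CPM per kb, PKP2 made up 12.5%, 11.5% and 12.5% in OV3/SCR and 20.2%, 18.6% and 20.6% in OV3/COX1KD, without overlap. PKP3 made up 63.2 ± 0.857% in OV3/SCR and 54.4 ± 1.15% in OV3/COX1KD (SD, n = 3 each), a difference of -8.77 percentage points, while its own level was within the spread of the libraries. PKP4 made up 24.7 ± 0.292% and 25.7 ± 0.23% (SD, n = 3 each). The summed level of the 4 plakophilins went from 91.8 ± 1.16 to 104 ± 1.66 CPM per kb (SD, n = 3 each), a ratio of 1.13.

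Of the summed CPM per kb of DSG2, DSG3, DSC2 and DSC3, DSG2 made up 64.7 ± 0.323% in OV3/SCR and 63.3 ± 0.419% in OV3/COX1KD (SD, n = 3 each). DSC2 made up 31.0 ± 0.185% and 32.7 ± 0.334% (SD, n = 3 each), a difference of 1.71 percentage points, and DSC3 4.32 ± 0.205% and 4.01 ± 0.119% (SD, n = 3 each). The cadherin sum went from 64.3 ± 0.645 to 91.9 ± 4.82 CPM per kb (SD, n = 3 each), a ratio of 1.43. For both sums and for the shares of PKP2, PKP3, PKP4, DSG2 and DSC2 the conditions did not overlap, and the two-sided exact permutation test gave p = 0.1 for each, the smallest value that 3 against 3 libraries allow (Benjamini-Hochberg adjusted p = 0.143 over 10 tests). For the DSC3 share the exact permutation test gave p = 0.2 (adjusted p = 0.25). The shares of PKP1 (exact permutation p = 1) and DSG3 (exact permutation p = 0.7) were below 0.1% in every library.

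**Figure D3:**
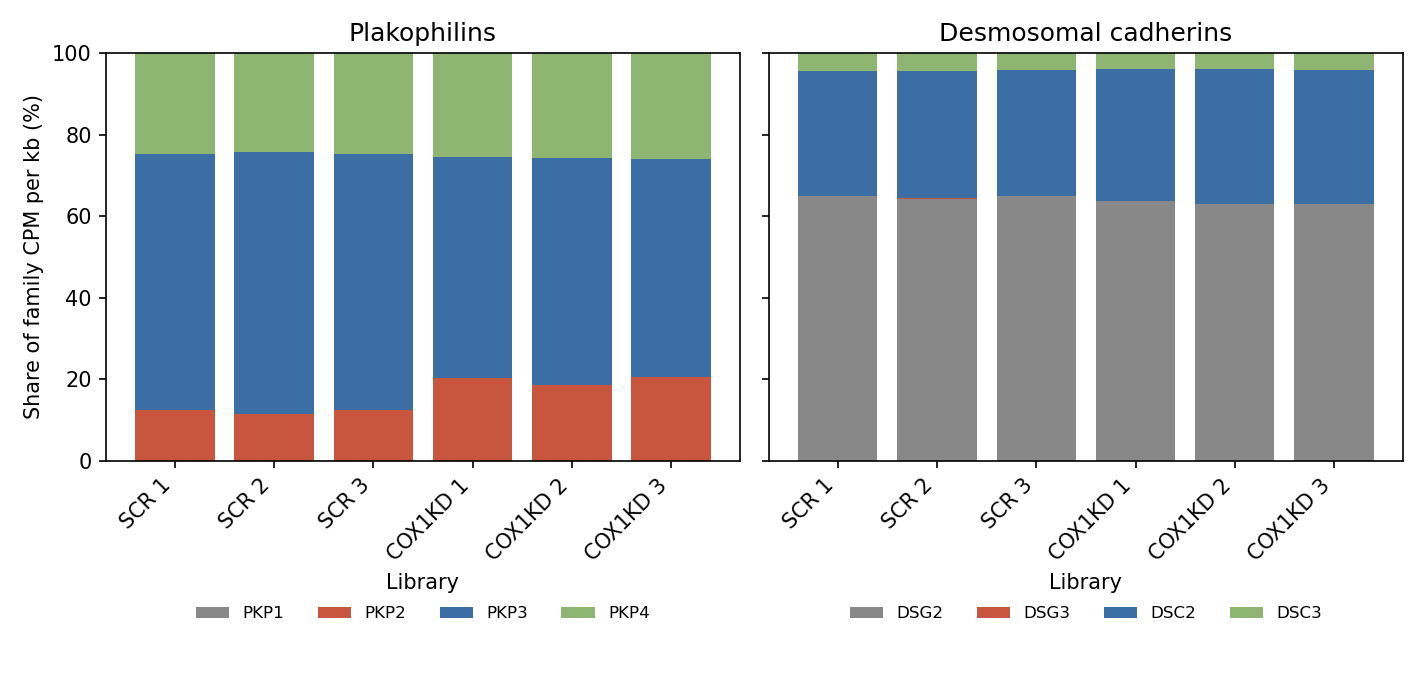
Share (%) of each gene in the summed TMM-normalized CPM per kb of its family in each library, for the 4 plakophilins and the 4 desmosomal cadherins among the 10 genes. The PKP2 share is near 12.1% in the OV3/SCR libraries and near 19.8% in the OV3/COX1KD libraries, whereas the DSG2 share lies close to 64% in all 6.

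The 4 cadherin members lie together on chromosome 18, in a cluster of 560 kb (chr18:28569331-29128971 of GRCh37) that also holds DSC1, DSG1 and DSG4. Within 2 Mb of the cluster, 7 other genes had a mean log2 CPM of 1 or more, of which 3 were called higher and 1 lower, with a median log2 fold change of 0.30 and a range from -0.43 to 0.75. The nearest of them, B4GALT6, a galactosyltransferase gene 73.2 kb beyond DSG2, had a log2 fold change of -0.43 (SE 0.137, edgeR FDR = 0.0108) and was not called. KLHL14, chosen after its value was seen, rose with a log2 fold change of 0.50 (edgeR FDR = 3.69e-11), a value close to that of DSG2. On the other side the nearest tested gene was CDH2, which encodes N-cadherin, 2.81 Mb from DSC3. CDH2 fell with a log2 fold change of -2.13 (SE 0.070, edgeR FDR = 3.12e-15).

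**Figure D4:**
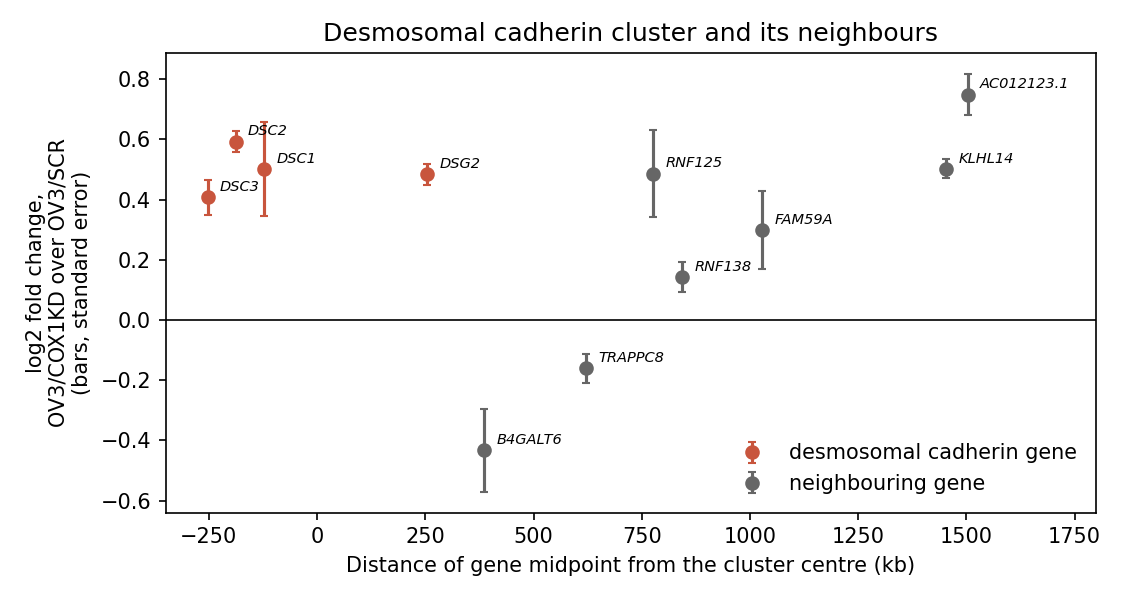
log2 fold change of OV3/COX1KD over OV3/SCR (bars, standard error) against the distance in kb of each gene's midpoint from the centre of the chromosome 18 cadherin cluster, for genes whose mean log2 CPM was 1 or more. The cluster genes DSC3, DSC2, DSC1 and DSG2 lie between 0.41 and 0.59, B4GALT6 lies at -0.43 and TRAPPC8 at -0.16, and the other 5 neighbors lie above 0.

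Direct partners of the desmosome and the filaments it anchors did not move in a single direction. Of 12 genes listed, 10 were tested, 5 were called higher and 3 lower, with a median log2 fold change of 0.03. KRT8 and KRT18, the keratin pair of simple epithelia to which desmoplakin binds, rose with log2 fold changes of 0.65 (SE 0.027, edgeR FDR = 7.12e-14) and 0.75 (SE 0.030, edgeR FDR = 6.08e-14). Both keratins have many processed copies in the genome, and how reads shared with those copies were counted is not given in the sources used here. PERP, a tetraspan membrane protein of desmosomes, had 7130, 6975 and 7103 counts in OV3/SCR and 9845, 10005 and 10712 in OV3/COX1KD. PERP rose 1.47-fold (log2 fold change 0.56, SE 0.029, edgeR FDR = 2.28e-12), so it lay close to DSC2 in size of change. Among genes named after their values were seen, KRT19 (log2 fold change 0.32) and the plakin PPL (0.17) rose as well. PNN, first described at desmosomes and mainly a nuclear splicing protein, fell (-0.49), as did KRT7 (-0.14) and the plakin EVPL (-0.11). The EVPL call was lost in 11 of 14 alternative analyses, among them the replicate block (FDR = 0.0126).

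Of 14 adherens junction genes, 13 were tested, 7 were called higher and 2 lower, and the median log2 fold change was 0.14. CDH1, which encodes E-cadherin, had 4420, 4346 and 4395 counts in OV3/SCR and 7854, 7172 and 8249 in OV3/COX1KD. CDH1 rose 1.81-fold (log2 fold change 0.85, SE 0.034, edgeR FDR = 5.88e-14), a change similar in size to that of PKP2. CDH2 had 943, 929 and 892 counts in OV3/SCR and 227, 177 and 212 in OV3/COX1KD, so the classical cadherins E-cadherin and N-cadherin moved in opposite directions while the 3 tested desmosomal cadherin members all rose. The classical cadherin gene CDH3 (P-cadherin), named after its value was seen, also rose (log2 fold change 0.367, SE 0.0345, edgeR FDR = 2.06e-08). ARVCF, a relative of PKP4 in the p120-catenin family, fell with a log2 fold change of -0.49 (SE 0.061, edgeR FDR = 9.52e-07).

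Hemidesmosomes, which anchor keratin to the basement membrane and share no member with the 10 genes, gave a mixed picture. All 6 listed genes were tested, 2 were called higher and 3 lower, and the median log2 fold change was -0.07. The integrin gene ITGB4 rose (log2 fold change 0.76, SE 0.066, edgeR FDR = 7.36e-09). COL17A1, the transmembrane collagen of hemidesmosomes, fell (log2 fold change -1.63, SE 0.183, edgeR FDR = 2.38e-07), and so did DST, a plakin related to DSP (log2 fold change -0.56, SE 0.046, edgeR FDR = 2.87e-09). The integrin gene ITGA6, named after its value was seen, was also called lower (log2 fold change -0.19, SE 0.053, edgeR FDR = 0.00525). The ITGA6 call was lost in 7 of 14 alternative analyses.

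Of 16 genes listed as regulators of desmosome genes or of desmosome adhesion, 15 had a row and 11 were tested, with 5 called higher, 2 lower and a median log2 fold change of 0.06. GRHL3, an epithelial transcription factor of the grainyhead-like family, had 44, 43 and 49 counts in OV3/SCR and 218, 233 and 263 in OV3/COX1KD. GRHL3 rose 5.35-fold (log2 fold change 2.42, SE 0.122, edgeR FDR = 1.97e-12). EGFR, a receptor kinase whose activity is known to loosen desmosomes, rose with a log2 fold change of 1.99 (SE 0.046, edgeR FDR = 2.07e-17). PRKCA, a protein kinase C known to weaken desmosome adhesion, fell with a log2 fold change of -0.59 (SE 0.077, edgeR FDR = 1.95e-06). The list also held ZEB1, ZEB2 and SNAI1, repressors that bind E-box letters such as those in the DSP, DSG2 and DSC2 windows, named here after their values were seen. SNAI1 was expressed, with 139, 135 and 142 counts in OV3/SCR and 124, 104 and 109 in OV3/COX1KD, and did not pass the test (log2 fold change -0.27, SE 0.115, edgeR FDR = 0.0501). ZEB1 had 0, 0 and 1 counts in OV3/SCR and 0, 1 and 0 in OV3/COX1KD. ZEB2 had 11, 3 and 1 counts in OV3/SCR and 3, 0 and 2 in OV3/COX1KD, so both ZEB genes were close to the floor.

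**Figure D5:**
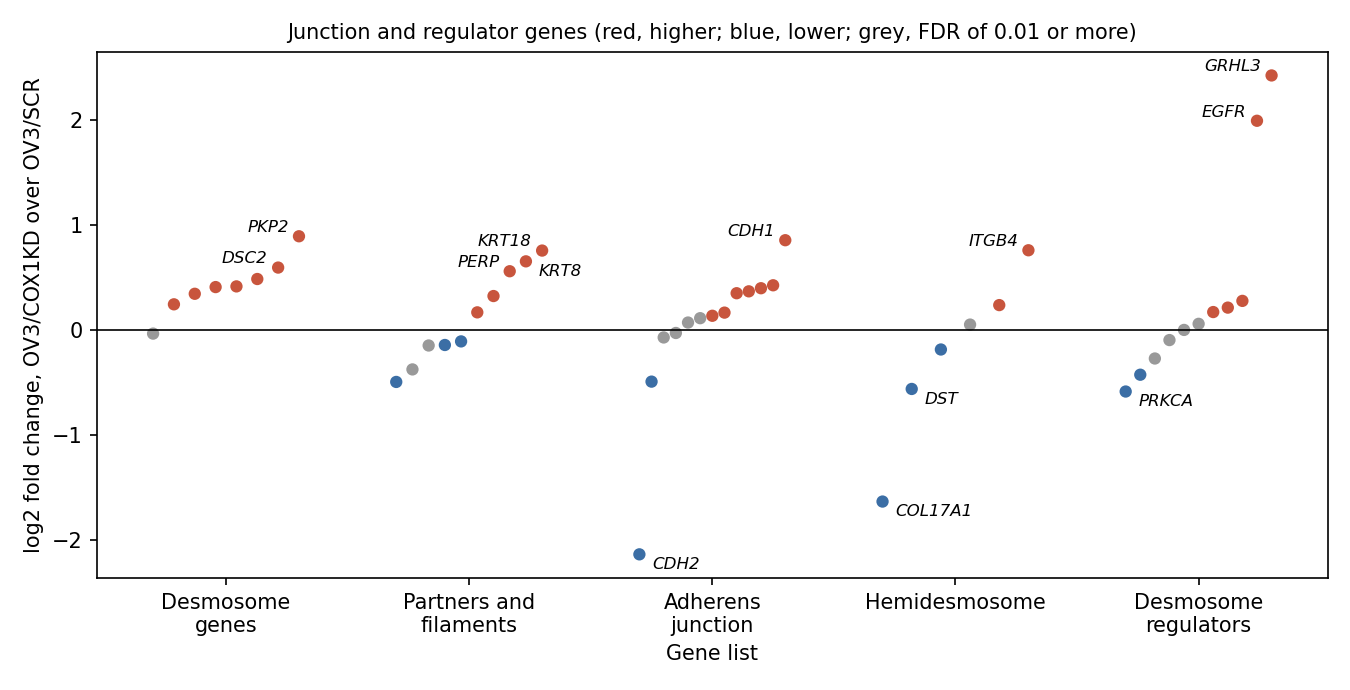
log2 fold change of OV3/COX1KD over OV3/SCR for the tested genes of 5 lists, each point a gene, red for genes called higher, blue for genes called lower and grey for those not called. Names are given for called genes beyond -0.5 or 0.5. The desmosome genes span -0.03 to 0.89 with none called lower, and each of the other 4 lists holds genes called in both directions.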

How the data were processed

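RNA-seq was done on 3 OV3/SCR and 3 OV3/COX1KD libraries. The deposited values were raw counts per gene, which the authors obtained with HTSeq from TopHat2 alignments to hg19 and left unnormalized. The annotation and strand setting used for counting are not given in the sources used here. Exons annotated to other genes covered 4.43% of the exon bases of DSC2, 4.38% of PKP4, 4.12% of PKP2, 1.96% of DSG2 and 0.595% of DSP. The gene overlapping PKP2 had no row among the counted genes, and those overlapping PKP4, DSG2 and DSP lie on the opposite strand. Part of the DSC2 reads could thus have been counted otherwise, and part of the PKP4, DSG2 and DSP reads if counting ignored strand.

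Groups and replicate numbers came from the labels. The analysis used edgeR 4.0.16 (R 4.3.3) with TMM scaling, filterByExpr (17309 of 34811 genes kept) and glmQLFit with glmQLFTest on condition, with Benjamini-Hochberg adjustment over all kept genes. A gene was called at an FDR under 0.01. A log2 fold change beyond 0.5 at that FDR, the cut of the study's figure colours, and a fold change above 2.5 at that FDR, the study's criterion for changed genes, were counted beside it. The SE was the size of the log2 fold change divided by the square root of F. GENCODE 44 lifted to GRCh37 gave coordinates and lengths for 33556 of the genes. Family shares were compared by exact permutation over the 6 libraries.

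All 10 members were named, with the family genes outside them, PTGS1, the genes with the largest called changes in each list (at most 3, with mean log2 CPM 1 or more), the nearest tested genes to the chromosome 18 cluster and the 3 genes most correlated with the member of largest change. The members and lists were chosen with earlier results of these data known. Alternatives were RLE and total count scaling, DESeq2 1.42.0, no filter, a filter of 10 counts or more per library, the replicate block, leaving out each library, glmTreat against 0.5, shares without length, and, chosen after seeing the data, GC and length offsets and exon union lengths. Scripts were tested on simulated data. Floors cover counting error only, since reads copied by PCR are not independent molecules.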

Additional observations from a re-analysis of the deposited data

How the results depend on the processing

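The log2 fold changes of the 7 called desmosome genes stayed positive in all 14 alternative analyses, from 0.81 to 0.95 for PKP2, 0.52 to 0.64 for DSC2, 0.41 to 0.54 for DSG2, 0.34 to 0.50 for DSP, 0.33 to 0.45 for DSC3, 0.27 to 0.38 for JUP and 0.17 to 0.27 for PKP4. Of these 14, only glmTreat against a log2 fold change of 0.5 took calls from them. It left PKP2 as the 1 member called higher, with or without the further cut at 0.5 (DSC2 FDR = 0.0137), and called 1600 genes over the whole table, 864 higher and 736 lower. Under glmTreat the lists had 2 higher and 0 lower (partners and filaments), 1 higher and 1 lower (adherens junction), 1 higher and 1 lower (hemidesmosome) and 2 higher and 0 lower (regulators). Total count scaling, which shifted the median of all genes by -0.078, called 1 member lower (PKP3). It called 4 partners and filaments higher and 3 lower, 5 adherens junction genes higher and 3 lower, and 3 regulators higher and 3 lower. The call on PPL was lost under that scaling (edgeR FDR = 0.0324). Without division by length the difference in share was 8.6 percentage points for PKP2, 0.221 for PKP4 and 2 for DSC2, and with exon union lengths, chosen after seeing the data, 5.54 for PKP2, -7.27 for PKP3 and 1.73 for PKP4.

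With the replicate block 7 members were called higher and 8233 genes over the whole table, and the calls on DSC1 and EVPL were lost, as given beside them. The labels speak of replicate pairs without saying what a pair shared. Deviations of same-numbered libraries from their condition means correlated at 0.00121, 0.0483 and 0.0231 across genes, which are not independent replicates. Libraries with different numbers gave -0.0426 to 0.0205. Since none of the same-numbered pairs was over 0.1, the numbers were not taken as pairing the libraries. Of the 6 libraries, 4 correlated best with their own number, a weak hint from the data and not from the design, since all these correlations were small. DSG3 and PKP1 were limited by depth.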

Other observations

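Around the members outside chromosome 18, genes within 2 Mb whose mean log2 CPM was 1 or more had median log2 fold changes of 0.29 near DSP (9 genes, 5 called higher and 1 lower), -0.02 near JUP (70 genes, 18 higher and 24 lower), 0.00323 near PKP2 (14 genes, 4 higher and 5 lower), 0.10 near PKP3 (48 genes, 18 higher and 15 lower) and 0.06 near PKP4 (9 genes, 3 higher and 3 lower). Near PKP1, which was itself not tested, the median was 0.05 (30 genes, 13 higher and 6 lower).

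The genes whose log2 CPM followed that of PKP2 most closely over the 6 libraries were CD2AP, which encodes an adaptor of the actin cytoskeleton (Pearson r = 0.9999, log2 fold change 0.48), MAGED2 (r = 0.9996, 0.56) and NEK6, a mitotic kinase gene (r = 0.9996, 0.60). Of 13004 genes compared, 673 had an r above 0.99 with PKP2. These correlations describe 6 libraries that fall into 2 conditions and share their scaling, so a difference between the conditions alone gives high values.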
